A study of Mus musculus with 8 samples.

Results

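The genes described here encode the proteins of the mitochondrial ribosome. They were taken as all array probes whose gene name is Mrpl or Mrps followed by a number and, in some cases, a letter from a to c, and whose spots the scanner software marked as well above background on 4 or more of the 8 arrays. The array carries 109 such probes, of which 107 passed that filter, against 26076 of 39429 probes of the whole array. The 107 probes belong to 77 genes of the 19994 genes measured, 48 named for the large subunit (Mrpl) and 29 for the small subunit (Mrps). The 2 probes that did not pass were second probes of Mrpl9 and Mrpl21, so every gene of the family on the array was measured. Where a gene had several probes, the brightest one stood for it. The chosen probe was well above background on all 8 arrays for 76 of the 77 genes. The exception was Mrpl4, for which 3 arrays had no usable spot and whose difference therefore rests on 5 arrays.

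The samples were labelled as beta pancreatic cells of C57BL/6 mice, with 4 biological replicates from a chow control diet and 4 from a high-fat diet. Total RNA was labelled with Cy3 and each sample was hybridised alone to an Agilent mouse array. The ages of the mice, how long the diets lasted, how the cells were isolated and whether animals were pooled are not given in the sources used here. The p-values measure the spread between these 8 samples.

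Each array held 43020 spots other than controls, with none saturated. The share of spots well above background was 63.6% to 68.6%. The arrays were assigned to 2 slides by the scan date in the file headers, so slide and scan session cannot be told apart. Replicates 1 and 2 of each diet fell on slide 1 and replicates 3 and 4 on slide 2. Control arrays took positions 1 and 3 of a slide and high-fat arrays positions 2 and 4, so position and diet cannot be told apart. All 9 beta cell markers examined were well above background on every array, as were all 6 alpha cell markers, all 4 delta and PP cell markers and all 9 acinar markers on the array. The mean log2 level of the beta cell markers, relative to the array's 75th percentile of signal, was 4.96 to 5.15 in the control samples and 4.81 to 5.13 in the high-fat samples. That of the alpha cell markers was 2.17 to 2.71 in the control samples and 1.48 to 1.94 in the high-fat samples, without overlap. That of the delta and PP cell markers was 4.66 to 4.87 in the control samples and 4.29 to 4.45 in the high-fat samples, again without overlap. That of the acinar markers was 6.41 to 7.60 and 6.72 to 7.62, with overlap. The part of these other cells in the values below was not tested.

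Mitochondria keep a small genome whose messenger RNAs all encode subunits of the respiratory chain and ATP synthase, and they translate these on a ribosome of their own. Its RNAs are transcribed from mitochondrial DNA, while its proteins are encoded in the nucleus, made in the cytosol and imported. In beta cells the respiratory chain that depends on this ribosome couples glucose metabolism to ATP production and so to insulin release.

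Some short motifs were more frequent in the promoters of these genes than in those of protein-coding genes as a whole. The choice of genes by name did not use them. RefSeq windows of GRCm38.p6, from 250 bases before to 50 bases after the annotated start, were found for 68 of the 77 genes and gave 74 windows. They were searched on both strands for GCGCA followed by any base and GCGC, a form of the NRF1 motif, for CCGGAAG, an ETS family motif read by GABP, for AAGATGGCG, a YY1 motif, and for TATAAA. The ETS and YY1 motifs can share the letters AAG, but matches to different motifs overlapped in 0 of the 74 windows. All counts are of windows with at least 1 match. The NRF1 motif was in 13 of the 74 windows, 17.6% against 6.38% of 21263 windows of protein-coding genes. The ETS motif was in 25, 33.8% against 11.6%. The YY1 motif was in 8, 10.8% against 1.83%. TATAAA was in 5, 6.76% against 12.6%. At least 1 of the NRF1, ETS and YY1 motifs was in 40 windows, 54.1% against 17.9%. The windows held a median of 21.5 CpG dinucleotides, against 13 for all protein-coding genes. The letters of the NRF1, ETS and YY1 motifs contain CpG, and windows of equal CpG content were not compared. A match is a run of letters and not a measured binding site.

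Printed here are the 6 promoters with matches to more than 1 of the NRF1, ETS and YY1 motifs, from 10 bases before the first match to at most 10 bases after the last. They are shown because 3 of their genes, Mrpl17, Mrpl57 and Mrps27, also stand at the ends of the range of diet differences described below. The capitals mark the matches, and CTTCCGG is CCGGAAG read on the other strand. Sequences and positions are those of RefSeq on GRCm38.p6, written along the strand of the gene.
Mrpl17 (chr7:105811117-105811334, minus strand): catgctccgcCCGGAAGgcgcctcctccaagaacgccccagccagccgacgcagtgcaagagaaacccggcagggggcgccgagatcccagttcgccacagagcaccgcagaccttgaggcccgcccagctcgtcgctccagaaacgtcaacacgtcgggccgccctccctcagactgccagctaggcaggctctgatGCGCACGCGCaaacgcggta
Mrpl57 (chr14:57826172-57826259, plus strand): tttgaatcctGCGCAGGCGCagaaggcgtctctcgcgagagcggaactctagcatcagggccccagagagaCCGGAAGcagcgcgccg
Mrps18a (chr17:46110968-46111033, plus strand): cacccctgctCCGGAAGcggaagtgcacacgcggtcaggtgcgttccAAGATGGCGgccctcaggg
Mrps21 (chr3:95871485-95871615, minus strand): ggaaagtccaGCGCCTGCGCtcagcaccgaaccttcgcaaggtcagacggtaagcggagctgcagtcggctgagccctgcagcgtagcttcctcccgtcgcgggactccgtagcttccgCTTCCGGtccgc
Mrps26 (chr2:130563733-130563780, plus strand): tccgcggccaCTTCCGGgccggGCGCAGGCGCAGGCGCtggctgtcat
Mrps27 (chr13:99344728-99344815, plus strand): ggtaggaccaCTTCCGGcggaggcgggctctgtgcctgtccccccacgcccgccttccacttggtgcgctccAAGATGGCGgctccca
In Mrps18a and Mrps27 the YY1 motif lies just after the annotated start, with the ETS motif before it. Mrpl57, Mrps21, Mrps26 and Mrpl17 pair an NRF1 motif with an ETS motif. In Mrps26, where 2 NRF1 matches overlap each other, all matches lie within a stretch of 48 bases, while in Mrpl17 the stretch printed is 218 bases.

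The large and small subunit genes differed in their shares of these letters, over few windows. The NRF1 motif was in 21.3% of 47 large subunit windows and in 11.1% of 27 small subunit windows. The ETS motif was in 29.8% and 40.7%, and the YY1 motif in 8.51% and 14.8%. Many of the genes start close to a neighbour on the opposite strand. A start on the opposite strand lay within 1000 bases upstream for 28 of the 74 windows (37.8%), against 12.3% of the windows of protein-coding genes. Mrpl46 and Mrps11, one gene of each subunit, start 42 bases apart in opposite directions. Mrps12 starts 147 bases from Sars2, the mitochondrial seryl-tRNA synthetase, and Mrpl43 116 bases from Twnk, the helicase of mitochondrial DNA. Mrpl47 starts 308 bases from Ndufb5, a subunit of respiratory complex I, and Mrpl49 lies 192 bases from Fau, which encodes a cytosolic ribosomal protein.

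The question put to the arrays was whether expression differed between the diets. No mitoribosomal gene did so at an adjusted p under 0.05 (limma with Benjamini-Hochberg adjustment over all 19994 genes), and neither did any other gene on the array, a background of 0%. The adjusted p of the 77 genes ran from 0.824 to 0.999. At an unadjusted p under 0.05, 1 gene was higher on the high-fat diet, Mrpl23, and 0 were lower, against 5.86% of all genes in either direction, 2.59% higher and 3.27% lower. A limma fit of the authors' deposited table had 2 genes at that threshold, Mrpl17 and Mrpl23, against 5.2% of all genes. The differences were small: the median log2 difference, high-fat minus control, was 0.064, the quartiles were 0.017 and 0.12, and the range was -0.19 to 0.28. The median size of a difference was 0.078 regardless of sign, against 0.136 over all genes, and the median standard error was 0.12 against 0.17.

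How large a difference these arrays leave room for can be read from the intervals. The 95% interval of the difference lay within 1.5-fold in either direction for 76 of the 77 genes (98.7%), and within 2-fold for all 77. Of all genes, 54.4% had intervals within 1.5-fold. Their median standard error was larger (0.17 against 0.12 in the family), and genes of equal signal level were not compared. The exception at 1.5-fold was Mrps14, a small subunit protein, at 0.20 with an interval from -0.19 to 0.59. In RNA from a mixture of cells, fewer cells of a type and less RNA per cell cannot be told apart.

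**Figure D1:**
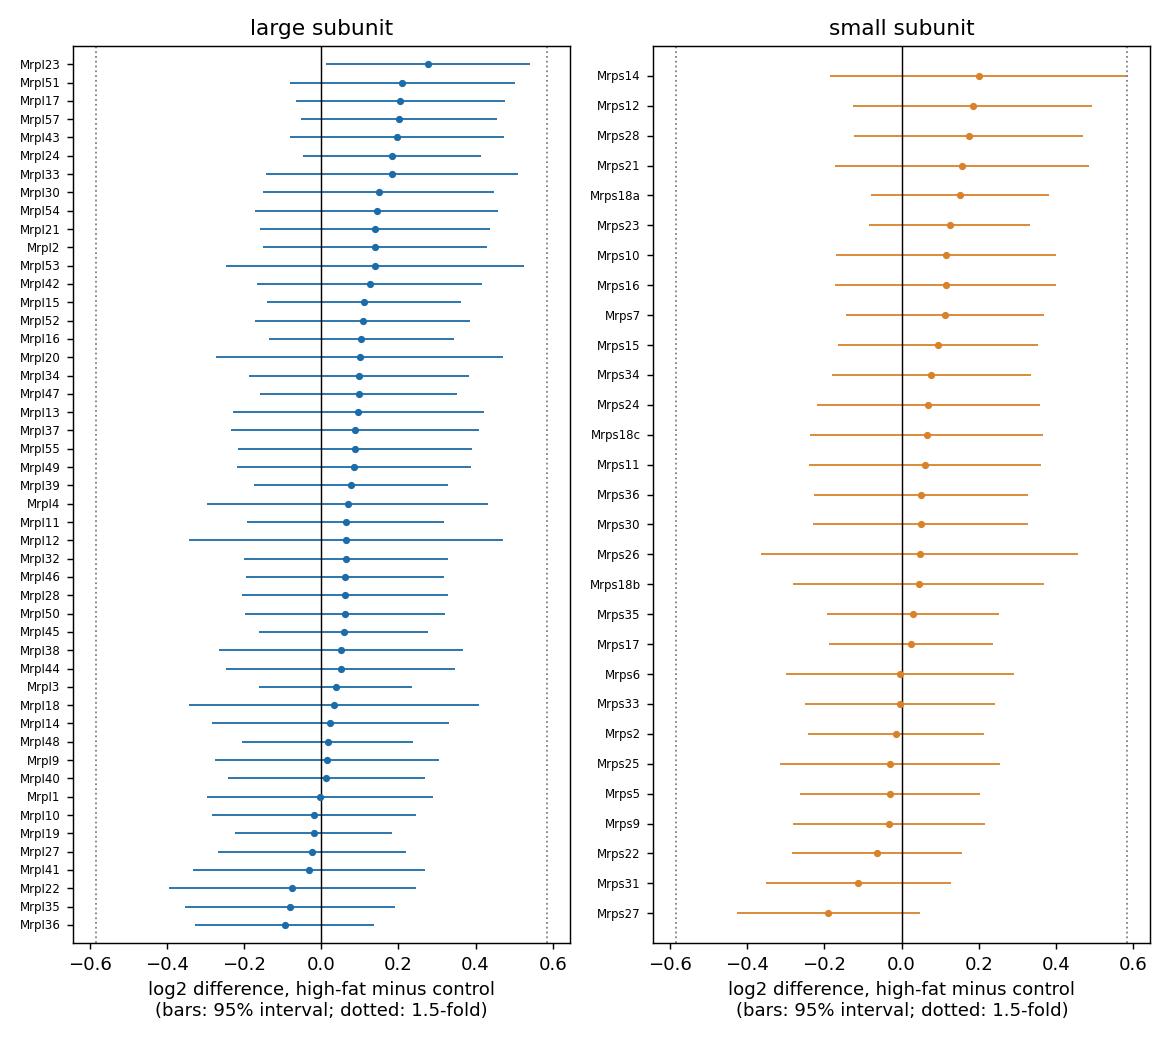
Log2 difference, high-fat minus control, of each mitoribosomal gene (points) with its 95% interval (bars), large subunit left and small subunit right, in order of the difference. The dotted lines mark 1.5-fold. All intervals except that of Mrps14 stay between the dotted lines, and the interval of Mrpl23 is the one that does not reach 0. Normexp background correction put 10 of the 77 above 0 where 60 are drawn there. Leaving out 7 spots of high-fat replicate 2 with a very bright local background, it put 61 above 0.

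More of the genes stood above 0 than below it: 60 of 77 (77.9%), against 50.2% of all genes. With normexp background correction 10 of 77 were above 0, with a median of -0.22 where the median of all genes was 0.13. That correction depends on 7 spots of 1 array, high-fat replicate 2, with a very bright local background. Without those spots, a setting chosen after seeing the data, 61 (79.2%) were above 0 with a median of 0.065. All genes moved up too under that setting, with 58.3% above 0 and a median of 0.028. The count of family genes above 0 also rests on high-fat replicate 2 itself. Without it 46 of 77 (59.7%) were above 0 and the median was 0.018, against 51.8% and 0.0088 over all genes.

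By array, the family stood highest in that one sample. For the 76 genes with a value on every array, each value was set against the gene's own mean over the 8 arrays. The median deviation in the control samples was -0.082, 0.063, -2.87e-05 and -0.066 log2 for replicates 1 to 4. In the high-fat samples it was -0.041, 0.19, -0.0097 and -0.0016. High-fat replicate 2 stood above the rest of both groups, and the other 3 high-fat samples lay within the range of the control samples. In high-fat replicate 2, 70 of the 76 genes were above their own mean, and it was the highest array for 54 of them (71.1%), against 14.6% of all genes. Over all genes that array was not high, with a median deviation of -0.0059. Control replicate 1 was the lowest array for 25 of the 76.

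**Figure D2:**
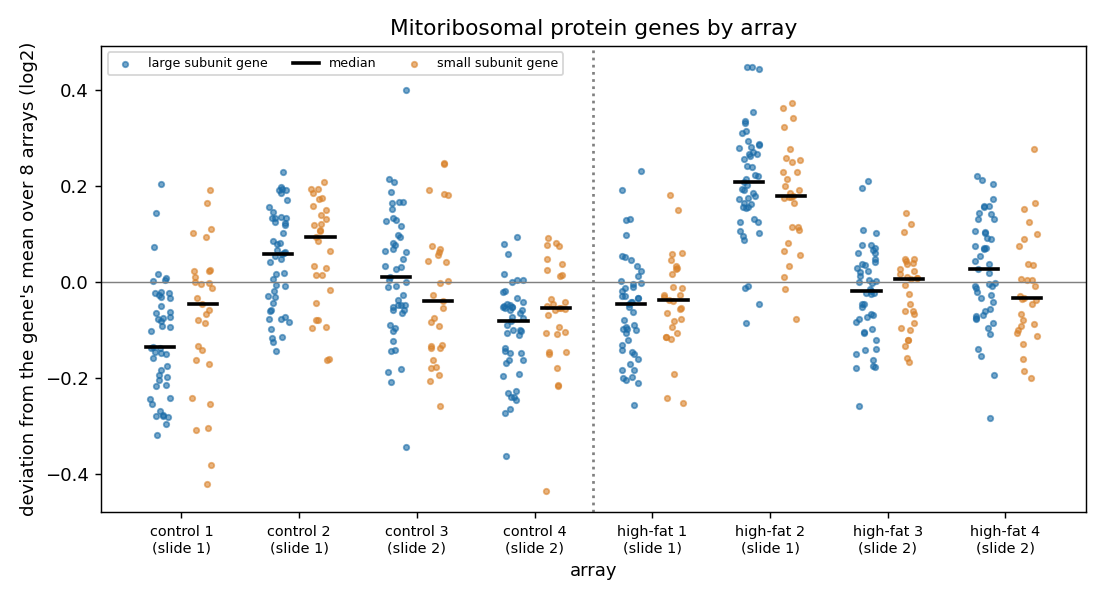
Deviation of each mitoribosomal gene from its own mean over the 8 arrays, in log2 units, by array, with large subunit genes in blue, small subunit genes in orange and black bars at the medians. High-fat replicate 2 is the array where both subunits stand highest, with medians of 0.21 and 0.18.

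The large and the small subunit stood close to each other on most arrays. The large subunit median was -0.13, 0.059, 0.010 and -0.080 in the control samples and -0.045, 0.21, -0.018 and 0.028 in the high-fat samples. The small subunit median was -0.045, 0.094, -0.039 and -0.054 in the control samples and -0.038, 0.18, 0.0073 and -0.034 in the high-fat samples. The standard deviation between arrays was 0.10 for the large subunit median and 0.088 for the small subunit median, and 0.049 for the gap between them. In the diet comparison 40 of 48 large subunit genes were above 0, with a median of 0.073, and 20 of 29 small subunit genes, with a median of 0.050. The medians under normexp background correction were -0.20 and -0.24. Without high-fat replicate 2 they were 0.022 and -0.011. The symbols do not match the structure throughout, since the proteins of Mrps18a and Mrps30 sit in the large subunit and that of Mrps36 is now known as a part of the 2-oxoglutarate dehydrogenase complex. Sorted by structure, a grouping added after the data were seen, 42 of 50 large subunit genes and 17 of 26 small subunit genes were above 0, with medians of 0.073 and 0.054.

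Above 0, the genes with the smallest p were of the large subunit. Mrpl23 encodes a protein at the exit of the tunnel through which the new peptide leaves. Its log2 level, relative to the array's 75th percentile, was 3.01, 3.15, 3.16 and 2.97 in the control samples. In the high-fat samples it was 3.40, 3.55, 3.17 and 3.28. All high-fat samples lay above all control samples, though replicate 3 did so by a narrow margin. The difference was 0.28 ± 0.12 (SE), or 1.21-fold, with a limma p of 0.0429 and an adjusted p of 0.824. Its probe lies on chromosome 7 at 149726589 to 149726647 of mm9. A second probe of the gene gave 0.17 (limma unadjusted p = 0.206), and there the diets overlapped. Mrpl24 encodes another protein of the tunnel exit. Its level was 3.35, 3.20, 3.35 and 3.11 in the control samples and 3.40, 3.52, 3.35 and 3.47 in the high-fat samples. The groups did not overlap, but high-fat replicate 3 and control replicates 1 and 3 are equal to 2 decimals. The difference was 0.18 ± 0.10 (limma adjusted p = 0.887). By the brightest probe of each gene, these were the 2 genes of the family whose diets did not overlap, both higher. Of all genes 1.73% were higher without overlap and 1.66% lower. With normexp background correction the differences of Mrpl23 and Mrpl24 were -0.15 and -0.26, and 0.26 and 0.15 without the 7 bright-background spots.

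Mrpl57, known earlier as Mrp63, encodes a protein that bacterial ribosomes lack. Its level was 3.50, 3.83, 3.67 and 3.66 in the control samples and 3.80, 4.03, 3.79 and 3.84 in the high-fat samples, where control replicate 2 overlapped the high-fat range. The difference was 0.20 ± 0.11 (limma adjusted p = 0.886). Mrpl17 encodes a further protein near the tunnel exit. Its level was 1.23, 1.34, 1.29 and 1.38 in the control samples and 1.23, 1.60, 1.61 and 1.61 in the high-fat samples. The other 3 high-fat samples lay above every control sample, while high-fat replicate 1 was level with the lowest control sample. The difference was 0.21 ± 0.12 (limma adjusted p = 0.894). Both were below 0 with normexp background correction, at -0.20 and -0.097. Both stood at 0.21 when it left out the bright-background spots.

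**Figure D3:**
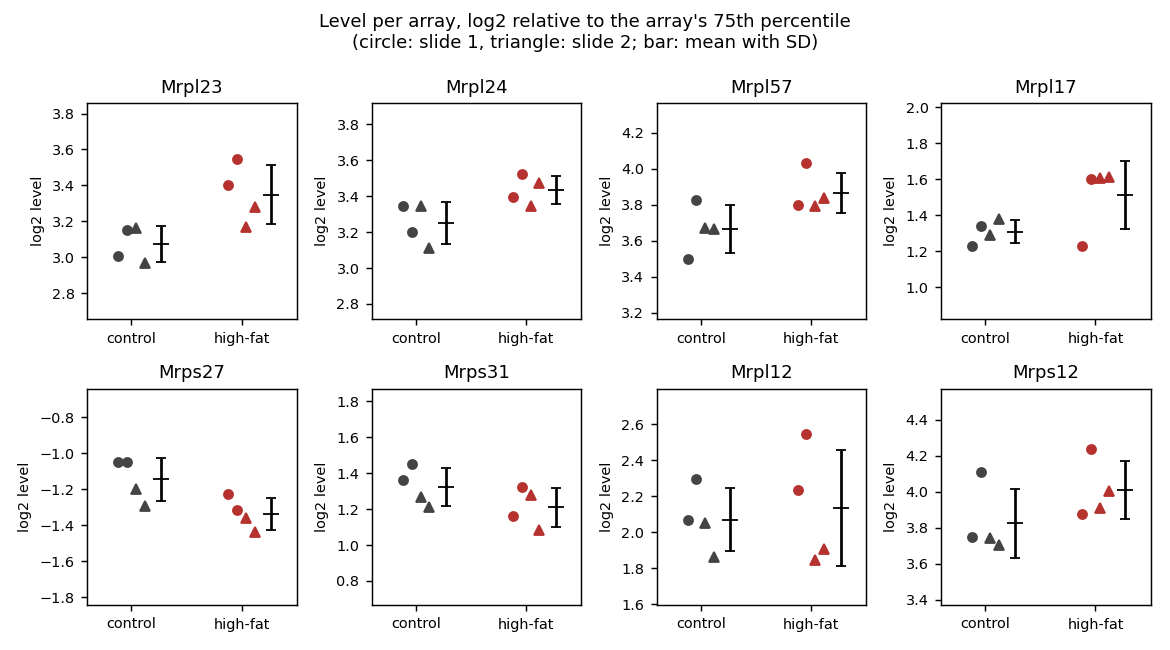
Log2 level on each array, relative to the array's 75th percentile, of 8 mitoribosomal genes in control (grey) and high-fat samples (red), with circles for slide 1, triangles for slide 2 and bars for the mean with SD (n = 4). The 8 panels span the same height of the log2 scale. Mrpl23 and Mrpl24 show no overlap between the diets, the ranges of Mrps27 overlap through high-fat replicate 1, and Mrpl12 and Mrps12 each have a high replicate 2 in both diets. With normexp background correction the differences of Mrpl23, Mrpl24, Mrpl57, Mrpl17, Mrpl12 and Mrps12 are below 0 and that of Mrps27 is above 0. When normexp leaves out the bright-background spots of high-fat replicate 2, each of these keeps the sign drawn.

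Below 0, the genes with the smallest p came from both subunits. Mrps27 encodes a pentatricopeptide repeat protein of the small subunit that binds RNA. Its level was -1.05, -1.05, -1.20 and -1.29 in the control samples and -1.23, -1.32, -1.36 and -1.44 in the high-fat samples. The ranges overlapped through high-fat replicate 1, and the other 3 high-fat samples lay below every control sample. The difference was -0.19 ± 0.10 (limma adjusted p = 0.884), with 0.10 under normexp background correction and -0.12 when it left out the bright-background spots. Mrps31, a small subunit protein particular to mitochondria, had 1.36, 1.45, 1.26 and 1.21 in the control samples and 1.16, 1.32, 1.28 and 1.08 in the high-fat samples. The difference was -0.11 ± 0.10, with overlap. Mrpl36, a small zinc-binding protein of the large subunit, had 2.76, 2.82, 2.78 and 2.85 in the control samples and 2.57, 2.85, 2.79 and 2.62 in the high-fat samples. The control samples lay close together, the high-fat samples spread around them on the lower side, and the difference was -0.095 ± 0.10. Mrpl35 stood at -0.081 ± 0.12.

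Several members have known roles at the working sites of the ribosome. Mrps12 encodes the small subunit protein next to the decoding centre. Its level was 3.75, 4.11, 3.74 and 3.70 in the control samples and 3.88, 4.24, 3.91 and 4.01 in the high-fat samples. Replicate 2 was the highest of each diet, and the ranges overlapped. The difference was 0.18 ± 0.14 (limma adjusted p = 0.923). Mrpl12 encodes the protein of the stalk that recruits translation factors, and it has also been described as a partner of the mitochondrial RNA polymerase. Its level was 2.07, 2.29, 2.05 and 1.86 in the control samples and 2.23, 2.55, 1.84 and 1.91 in the high-fat samples. The high-fat samples of slide 1 were above and those of slide 2 below most control samples, and the difference was 0.064 ± 0.18. Its probe lies on chromosome 11 at 120349740 to 120349799 of mm9.

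Mrpl3, near the catalytic centre of the large subunit, was among the steadiest genes. Its level was 1.86, 1.90, 1.83 and 1.86 in the control samples and 1.88, 1.97, 1.92 and 1.82 in the high-fat samples. The samples of both diets shared one narrow range, and the difference was 0.038 ± 0.086, with a 95% interval from -0.16 to 0.24. Mrpl44 carries a fold related to ribonuclease III, and variants of it, of Mrpl3 and of the small subunit genes below are known causes of inherited mitochondrial disease in humans. Its difference was 0.050 ± 0.13. Among the small subunit genes of that kind, the difference was 0.11 ± 0.11 for Mrps7, 0.11 ± 0.12 for Mrps16, -0.063 ± 0.096 for Mrps22 and 0.078 ± 0.11 for Mrps34. The diets overlapped for all 4 of them. Normexp background correction put Mrps12, Mrpl12, Mrpl3, Mrpl44, Mrps7, Mrps16 and Mrps34 below 0. Leaving out the 7 bright-background spots put all of these above 0, Mrpl3 only at 8.6e-05.

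The Mrps18 paralogs descend from 1 bacterial protein and occupy different places: that of Mrps18a sits in the large subunit and those of Mrps18b and Mrps18c in the small subunit. Mrps18a had 1.62, 1.70, 1.64 and 1.86 in the control samples and 1.77, 1.95, 1.93 and 1.79 in the high-fat samples. Control replicate 4 alone reached the high-fat range, and the difference was 0.15 ± 0.10. Mrps18b had 2.73, 2.89, 2.64 and 2.50 in the control samples and 2.68, 3.05, 2.58 and 2.62 in the high-fat samples, a difference of 0.045 ± 0.14. Mrps18c had 1.65, 1.89, 2.15 and 1.80 in the control samples and 1.83, 2.01, 1.84 and 2.07 in the high-fat samples, a difference of 0.065 ± 0.13. The diets overlapped for all 3, none differed between them at an adjusted p under 0.05 (limma), and normexp background correction put all 3 below 0. Leaving out the bright-background spots, normexp gave 0.14, 0.043 and 0.073 for Mrps18a, Mrps18b and Mrps18c.

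Different probes of a gene did not always give the same sign. Of the 26 genes with several kept probes, 7 had probes on both sides of 0. The brightest probe of Mrpl20 gave 0.10 and its second probe -0.83 ± 0.87, the latter from a probe well above background on 4 arrays only. Mrpl39, a large subunit protein of mitochondria, had 0.078 and -0.22. The 4 probes of Mrpl47, whose protein lies by the tunnel exit, gave 0.097, 0.21, 0.00094 and -0.20. The probes gave 0.062 and -0.12 for Mrpl50, 0.045, 0.017 and -0.052 for Mrps18b, 0.047 and -0.025 for Mrps26, and -0.023 and 0.033 for Mrpl27. None of these genes had a probe with an adjusted p under 0.05 (limma).

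Each slide held 2 samples of each diet and so gives its own value of the difference. On slide 1 the median of the family was 0.12 and 57 of 77 genes were above 0, where all genes had a median of 0.028 and 54.0% above 0. On slide 2 the median was 0.036 and 49 were above 0, where all genes had a median of -0.046 and 42.3% above 0. The large subunit medians were 0.13 and 0.052, and the small subunit medians 0.085 and 0.019. The same sign on both slides was found for 41 of 77 genes (35 above and 6 below 0). Over all genes it was 52.4% of 19963, a share near that of the family, with 4863 above and 5591 below 0. On slide 2 the difference of Mrpl4 rests on replicate 4 of each diet alone. No gene of the family had an adjusted p under 0.05 on either slide alone (limma), where the background was 0% on both.

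**Figure D4:**
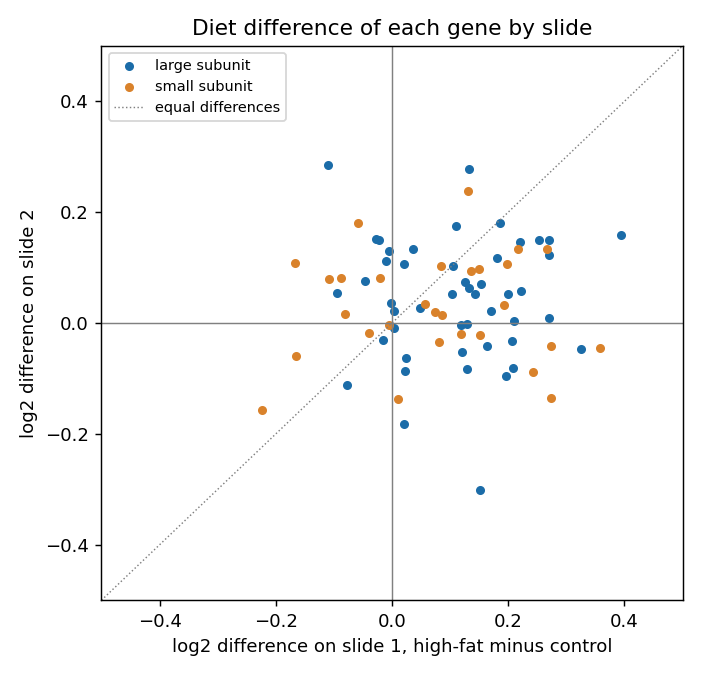
Log2 difference, high-fat minus control, of each mitoribosomal gene on slide 1 (horizontal) and on slide 2 (vertical), with 2 samples of each diet per slide, large subunit genes in blue and small subunit genes in orange. The dotted line marks equal differences. 35 genes lie above 0 on both slides and 6 below 0 on both, with the rest on different sides of 0. Of all 19963 genes with a value on both slides, 4863 lay above 0 on both and 5591 below. Mrpl4 rests on replicate 4 of each diet alone on slide 2.

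The difference between the slides in the effect of the diet was tested for each gene as an interaction. No gene of the family passed at an adjusted p under 0.05, with a background of 0%, and none at an unadjusted p under 0.05, against 6.86% of all genes. Mrps24, a small subunit protein at the entry of the messenger RNA channel, had the smallest p. It had 1.31, 1.39, 1.80 and 1.57 in the control samples and 1.58, 1.67, 1.58 and 1.52 in the high-fat samples. On slide 1 the diets differed by 0.27 and on slide 2 by -0.13, an interaction of -0.41 (limma adjusted p = 0.747). Mrpl22, at the tunnel exit, had 1.15, 1.27, 1.42 and 1.16 in the control samples and 1.27, 1.46, 1.05 and 0.93 in the high-fat samples. The high-fat samples of slide 2 were the lowest of all, and the interaction was -0.45 (limma adjusted p = 0.753). Mrpl37, a large subunit protein that bacteria lack, had -0.48, -0.55, -1.03 and -0.85 in the control samples and -0.55, -0.70, -0.61 and -0.70 in the high-fat samples. Here the low values were the control samples of slide 2, and the interaction was 0.39 (limma adjusted p = 0.757). At the other end, the differences on slides 1 and 2 were 0.19 and 0.18 for Mrpl24, 0.10 and 0.10 for Mrpl16, which lies near the catalytic centre, and -0.0049 and -0.0037 for Mrps33.

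Between the slides themselves, whatever the diet, 0 of the 77 genes had an adjusted p under 0.05 (limma), against 3.4% of all genes. The authors' deposited value table gave 2 there, Mrpl13 at 0.50 and Mrps26 at -0.43, slide 2 minus slide 1, against 5.1% of all genes in a limma fit of that table. At an unadjusted p under 0.05 the count was 4, 1 higher and 3 lower on slide 2, against 19.1% of all genes, 14.1% higher and 5.05% lower. Mrpl1 was higher on slide 2 by 0.26 (adjusted p = 0.170). Mrpl12, Mrps26 and Mrpl38 stood at -0.37, -0.35 and -0.27 (adjusted p = 0.167, 0.222 and 0.203).

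The rest of the mitochondrial translation machinery was measured on the same arrays, and none of its genes differed between the diets at an adjusted p under 0.05 (limma). The 6 mitoribosomal proteins with other symbols had a median of 0.058, and 5 of 6 were above 0, against 3 of 6 with quantile normalization (median -0.0059) or the deposited table (0.0054) and 0 of 6 with normexp background correction (-0.32). Ict1, a peptidyl-tRNA hydrolase built into the large subunit, stood at 0.14 ± 0.11. The small subunit proteins Aurkaip1 and Chchd1 stood at 0.14 ± 0.17 and 0.11 ± 0.14. All 3 were below 0 with normexp, but above 0 when it left out the bright-background spots. The 20 genes listed as mitochondrial translation factors had a median of -0.0089, with 10 above 0. The list also holds Letm1, Oxa1l, Lrpprc, Slirp, Mpv17l2 and the amidation genes Gatc, Qrsl1 and Pet112, which are not translation factors. The list's median was -0.078 on slide 1 and 0.072 on slide 2. It was above 0 with quantile normalization (0.028), median scaling (0.064), the deposited table (0.011) and normexp without the bright-background spots (0.040). It was also above 0 without control replicate 1 (0.044), control replicate 2 (0.049) or high-fat replicate 4 (0.019). Pet112 of this list, the B subunit of the enzyme that amidates glutamyl-tRNA, was at -0.29 ± 0.11 (limma unadjusted p = 0.0317, adjusted p = 0.804). Its diets did not overlap. The release factor Mtrf1 was at 0.27 ± 0.16 and the elongation factor Tufm at 0.098 ± 0.11 (-0.29 with normexp). The 16 measured aminoacyl-tRNA synthetases of mitochondria had a median of 0.017, with 9 above 0, and of -0.064 on slide 1. Their median was -0.069, -0.0026 and -0.027 without high-fat replicate 1, high-fat replicate 3 and control replicate 4. Pars2 and Yars2, which charge proline and tyrosine tRNAs, stood at -0.18 and 0.14.

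The 27 measured genes of mitoribosome assembly and rRNA modification had a median of 0.023, with 15 above 0, and of -0.056 with normexp. Without control replicate 1 or 4 that median was -0.011 or -0.0052, and without high-fat replicate 1 or 2 it was -0.012 or -0.0080. It was also below 0 on slide 2 (-0.022) and with the mean of a gene's probes (-0.0076). In that list Spg7, a subunit of the protease that matures a large subunit protein, was at 0.21 ± 0.092 (limma unadjusted p = 0.0497, adjusted p = 0.842). Malsu1, a factor that holds the large subunit apart until it is complete, and Nsun4, an rRNA methyltransferase, were at 0.20 and 0.19. Spg7 and Malsu1 were below 0 with normexp, at -0.24 and -0.17, but above 0 when it left out the bright-background spots. The list of mitochondrial transcription and its control, which also holds the mtDNA replication genes Polg, Polg2, Peo1 and Ssbp1, had 19 measured genes. Their median was -0.043, with 8 above 0. It was above 0 with normexp (0.073), with median scaling (0.030) and without high-fat replicate 4 (0.0017). Myc, a transcription factor with many targets in ribosome and mitochondrial biogenesis, was at 0.58 ± 0.30, with overlap between the diets. Mterfd3 was at -0.33 ± 0.15. Ppargc1a, the coactivator of mitochondrial biogenesis, was at -0.36 ± 0.24. It was at 0.29 with normexp, but below 0 when normexp left out the bright-background spots. Tfam, which packages mitochondrial DNA, was at 0.0038 ± 0.11, and at -0.24 with normexp. Of the factors whose motifs are shown above, Nrf1 was at -0.20, Gabpa at 0.033 and Yy1 at -0.053. The diet differences of the mitoribosomal genes had a median of 0.064 for the 40 with at least 1 of the 3 motifs and 0.062 for the 28 without. By motif, the medians with and without a match were 0.107 (25 genes) and 0.062 (43) for ETS, 0.064 (13) and 0.064 (55) for NRF1, and 0.066 (8) and 0.064 (60) for YY1. These gaps were not tested.

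The products that this ribosome makes, and their nuclear partners, give the comparison on the other side. The 13 messenger RNAs of mitochondrial DNA had a median of 0.083, with 12 above 0, at 0.22 on slide 1 and -0.033 on slide 2. That direction turned with normexp (-0.33, 1 of 13 above 0), quantile normalization (-0.046, 5 of 13) and the deposited table (-0.013, 5 of 13), and without control replicate 1 the median was 0.0073, with 7 of 13 above 0. The list of 81 measured nuclear genes of the respiratory chain also holds those of ATP synthase. These 81 had a median of 0.16, with 76 above 0, at 0.23 and 0.099 on the 2 slides, but -0.27 with 4 of 81 above 0 with normexp. Quantile normalization gave them a median of 0.046 and the deposited table one of 0.050. Ndufa1, of complex I, was at 0.38 ± 0.14 (limma unadjusted p = 0.0226, adjusted p = 0.776), and at -0.018 with normexp. It was above 0 when normexp left out the bright-background spots.

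The 80 measured cytosolic ribosomal proteins had a median of 0.15, with all 80 above 0, at 0.35 on slide 1 and -0.034 on slide 2, but -0.28 with 2 of 80 above 0 with normexp. With quantile normalization 48 of the 80 were above 0 (median 0.025), and 64 with the deposited table (median 0.054). Without the 7 bright-background spots, normexp medians were 0.088 for the mitochondrial messenger RNAs, 0.13 for the respiratory chain and 0.14 for the cytosolic ribosomal proteins. The median of all genes was then 0.028. The arrays that stood apart differed between the lists. High-fat replicate 2 was the highest array for the respiratory chain, with a median deviation of 0.27. For the cytosolic ribosomal proteins it stood at 0.24 and control replicate 3 at 0.22, while control replicate 1 was low at -0.35, with 0 of 79 genes above their own mean. Without control replicate 1 the cytosolic median was 0.061. For the mitochondrial messenger RNAs, control replicate 4 (0.12), high-fat replicate 2 (0.12) and high-fat replicate 1 (0.11) were about level, and control replicate 1 was low at -0.26. Whether the lists differ from the mitoribosomal genes was not tested.

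**Figure D5:**
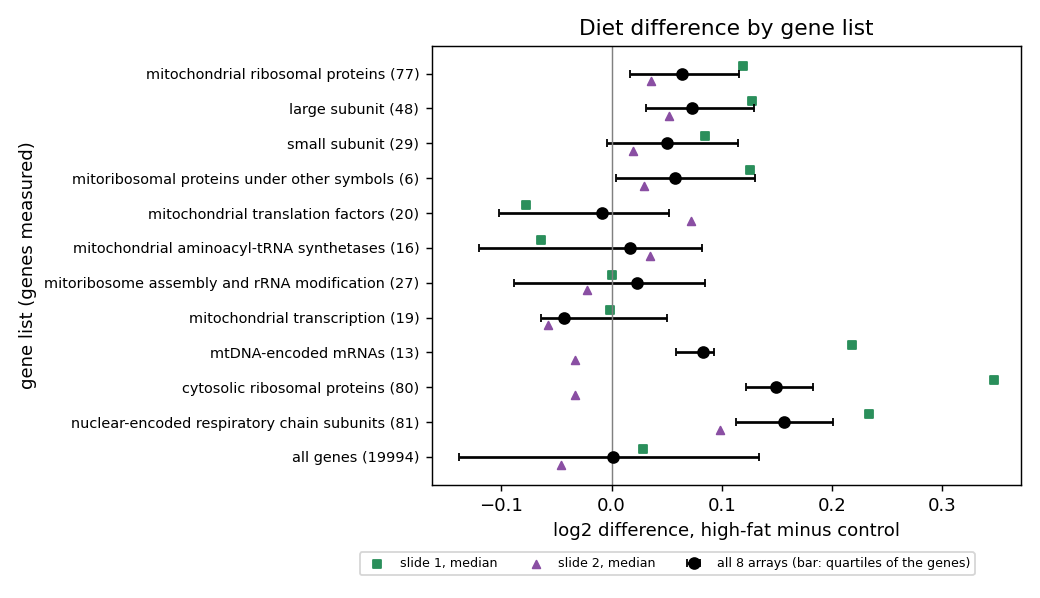
Median log2 difference, high-fat minus control, of each gene list over all 8 arrays (black points, with bars for the quartiles of its genes), on slide 1 (green squares) and on slide 2 (purple triangles), with the number of genes measured in brackets. The mitoribosomal genes lie at 0.064, between the translation factor list at -0.0089 and the respiratory chain (with ATP synthase) at 0.16. The translation factor list also holds other mitochondrial genes, and its slide medians lie on both sides of 0. The transcription list also holds mtDNA replication genes. No list holds a gene past the adjusted threshold. Normexp background correction turns the medians of the mitoribosomal genes (-0.22), both subunits, the proteins under other symbols and assembly below 0. It does the same for the mtDNA messenger RNAs, the respiratory chain and the cytosolic ribosomal proteins, and turns that of mitochondrial transcription above 0. When normexp leaves out the bright-background spots, those medians keep the sign drawn, and that of the translation factors turns above 0 (0.040). Quantile normalization turns those of the other symbols, the translation factors and the mtDNA messenger RNAs, the deposited table those of the translation factors and the mtDNA messenger RNAs, and median scaling those of the translation factors and mitochondrial transcription.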

How the data were processed

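The deposited scanner files hold 1 line per spot with its processed signal as an intensity, made by Feature Extraction 11.5.1.1 per the file headers. The deposited value table holds log2 values of the same arrays. The submitters' processing notes name limma for it without a version, and its scaling and background steps are not given in the sources used here. It served as an alternative. Control spots and 125 to 228 outlier spots per array were left out, the log2 signal was taken minus the array's 75th percentile (335.8 to 715.4 intensity units), and replicate spots of 1 probe were averaged. A probe had to be well above background on 4 or more of 8 arrays.

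Differences between diets, between slides and their interaction were fitted over all genes with limma 3.58.1 in R 4.3.3 (lmFit, eBayes, Benjamini-Hochberg). The fit of diets was tried on simulated data with shifts larger than any mitoribosomal difference given here. Recovery of differences as small as those was therefore not tested. The number of arrays limits the precision. Samples were grouped by their labels. Probe positions are the files' own (mm9). Promoters were matched by symbol. The members, the gene lists and the rule for named genes were chosen with earlier results of these data known. The rule named the 4 higher and 4 lower members with the smallest p, the 3 with the smallest and the 3 with the largest interaction p, members of known role or disease, those whose probes differ in sign, and up to 3 genes of each other list. Mrps14, Mrpl1, Mrpl13, Mrpl38, Tufm, Tfam, Nrf1, Gabpa and Yy1 were named after their values were seen. Alternative settings changed the background correction (normexp, offset 50), the scaling (quantile or median), the source (the deposited table), the filter, the rule for several probes (their mean), the eBayes options (trended, robust) and the samples (1 slide, or 1 sample fewer), or added slide or replicate as a block.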

Additional observations from a re-analysis of the deposited data

Results flagged for a closer look

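Among 114 groups of 4 samples examined, 8 held a sample far from the other 3 by the ratio of its gap to the group's range (above Dixon's critical value), where chance gives about 1 in 20. Mrpl17 was at 1.23 in high-fat replicate 1, with the others at 1.60 to 1.61. Mrps33 was at 4.09 in high-fat replicate 2, with the others at 3.81 to 3.85. Mrps12 was at 4.11 in control replicate 2, with the others at 3.70 to 3.75. Mrps26 was at 3.19 in control replicate 4, with the others at 3.70 to 3.79. Mrpl47 was at 1.02 in control replicate 3, with the others at 0.721 to 0.758. ND1, a complex I subunit encoded by mitochondrial DNA, was at 2.71 in high-fat replicate 2, with the others at 2.93 to 2.97, so it was low on the array where the mitoribosomal genes were high. The median deviation over the mitoribosomal genes was 0.194 in high-fat replicate 2, with the others at -0.0409 to -0.00161. The median deviation of the small subunit genes was 0.0941 in control replicate 2, with the others at -0.0542 to -0.0388.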

How the results depend on the processing

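Under all 21 alternatives 0 mitoribosomal genes differed between diets at an adjusted p under 0.05 (limma). Normexp background correction gave a median of -0.224, -0.199 for the large and -0.238 for the small subunit, with 10 genes above 0. On high-fat replicate 2 the local background of 7 spots reached 261989 intensity units. Without them, a setting chosen after seeing the data, the median was 0.065, against 0.028 over all genes. At an unadjusted p under 0.05 the count was 2 with the deposited value table (Mrpl17 and Mrpl23, against 5.2% of all genes) and 0 with normexp with or without those spots, quantile normalization, median scaling, no filter, the mean of a gene's probes, the replicate block, slide 1 alone and slide 2 alone. Median scaling moved the median of all genes to 0.074, with 72 mitoribosomal genes above 0. The deposited table called 2 genes between slides (5.1% of all genes), where limma on the scanner signal called 0. Leaving out each sample in turn gave 0 to 0 genes at an adjusted p under 0.05, 0 to 1 at an unadjusted p under 0.05, medians of 0.018 to 0.10, 0.022 to 0.12 for the large and -0.011 to 0.091 for the small subunit, a gap between subunits of -0.0079 to 0.072, and 46 to 68 genes above 0; the lowest count was without high-fat replicate 2 and the highest without control replicate 2. Of 30 named members, 23 turned sign with normexp, 4 on slide 1 alone, 6 on slide 2 alone, 4 without high-fat replicate 2 and 4 with the mean of a gene's probes, and of 24 named genes of the other lists 14 turned with normexp. Normexp without the 7 bright-background spots turned 0 of the 30 and 0 of the 24. The labels do not pair the samples. Same-numbered samples had correlations of 0.208, 0.397, -0.0041 and 0.304. Samples with different numbers were not compared, so pairing was not tested. The replicate block gave 0 genes at an adjusted p under 0.05 and a median of 0.064. With that block 1853 of all genes had an unadjusted p under 0.05 (limma), against 1171 in the main fit. Other causes of these changes were not tested.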
